A study of Homo sapiens with 16 samples.

Results

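Collagens are the fibrous and sheet-forming proteins of the extracellular matrix, and 44 genes that encode their chains were described here among the 35993 gene symbols counted in 4 bladder cancer cell lines. The members were taken by a rule on the name that uses no measured value, as every symbol made of COL, a number, A and a number with nothing after it, so that antisense transcripts and collagen-like genes with other names were not included. All 44 had reads in at least 1 library, and 42 of them passed the filter on low counts and were among the 21297 genes tested. COL10A1, a network-forming collagen of growth plate cartilage, and COL6A5, a type VI collagen chain, did not pass and had at most 3 and 8 counts in any library.

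The cultures were of TCCSUP, RT112, J82 and 253J, all established human bladder cancer cell lines labelled as wild type, and RNA was sequenced 48 h after addition of CM-1758, an inhibitor of histone deacetylases, the enzymes that remove acetyl groups from histones, or of DMSO as vehicle. The drug was given to each cell line at its own inhibitory concentration (IC50), so the dose differed between cell lines. 253J, J82 and RT112 grew in DMEM GlutaMAX and TCCSUP in EMEM, each with fetal bovine serum, so medium and cell line cannot be told apart. Each of the 8 groups held 2 libraries of total RNA depleted of ribosomal RNA, from independent biological replicates, 16 libraries in all. The deposited values were raw read counts per gene, given below as CPM, counts per 1000000 reads of the normalized library size.

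Each collagen molecule is a triple helix of chains, and the chains of many types are encoded by separate genes. Types I, III and V build the fibrils of connective tissue, types IV, XV and XVIII belong to basement membranes, type VI forms beaded filaments next to cells, type VII anchors epithelium to the stroma, FACIT collagens (fibril-associated collagens with interrupted triple helices) decorate fibrils, and types such as XVII span the plasma membrane, where XVII is part of the hemidesmosome of basal epithelial cells. In bladder, the urothelium rests on a type IV network, and fibrillar collagens are mainly a product of stromal fibroblasts.

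Total counts ran from 27655401 to 32537104 in the 8 control libraries and from 22506431 to 31547585 in the 8 treated libraries, so that 3 counts, taken as the floor, were worth about 0.1 CPM. Of 6 epithelial markers, 5 or 6 reached 1 CPM in every group, with summed levels of 369 CPM in a treated TCCSUP library to 8069 CPM in a control J82 library. The uroplakin genes UPK2 and UPK3A, markers of differentiated urothelium, were at 0 in control libraries of 253J, J82 and TCCSUP, and UPK3A also in control RT112. They belong to a list of 8 urothelial markers. Its control sum was 12.3 to 12.8 CPM in 253J, 27.6 to 33.6 CPM in J82, 1718 to 1957 CPM in RT112 and 102 to 111 CPM in TCCSUP. PPARG of this list had control means of 88.9 CPM in TCCSUP and 28.4 CPM in J82. The summed level of 6 fibroblast markers was 0.153 to 0.398 CPM in control 253J, 102 to 109 CPM in control J82, 1330.4 to 1364 CPM in control RT112, where LUM made up nearly all of it, and 1834 to 1967 CPM in control TCCSUP, where all 6 were above 1 CPM. The endothelial list summed to at most 13.6 CPM and the leukocyte list to at most 20.9 CPM in any library. The libraries of J82 differed most from each other, with a chi-square of their counts per degree of freedom of 74.4 in control, against 11.8 to 22.3 in the control groups of the other cell lines.

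The control cultures of the 4 cell lines made different collagens. Summed over the 44 genes, the control level was 4231 and 4235 CPM in 253J, 6813 and 6208 CPM in J82, 3093 and 3237 CPM in RT112 and 13998.5 and 14428 CPM in TCCSUP. The fibrillar genes took 82.5% of this sum in TCCSUP and 71.8% in J82, but 2.3% in 253J and 3.7% in RT112. Type IV genes took 78.9% in 253J and 42.6% in RT112, and FACIT genes 43.1% in RT112. Per kilobase of exon, the scale on which genes can be compared, the highest control level was that of COL4A1 in 253J (260.2 CPM per kb), COL3A1 in J82 (555 CPM per kb), COL12A1 in RT112 (112 CPM per kb) and COL1A2 in TCCSUP (961 CPM per kb). The control level differed between the cell lines for 38 of the 42 tested members by the quasi-likelihood F test of edgeR with Benjamini-Hochberg adjustment, against 78.8% of all tested genes. Between pairs of cell lines, 253J differed from J82 in 27 members (53.1% of all genes), from RT112 in 31 (54.3%) and from TCCSUP in 32 (53.1%), J82 from RT112 in 26 (52.1%) and from TCCSUP in 28 (48%), and RT112 from TCCSUP in 28 (51.5%). Of the 33 members that reached a mean of 1 CPM in control of some cell line, 13 were highest in TCCSUP, 9 in 253J, 6 in RT112 and 5 in J82.

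With CM-1758 the summed collagen level was lower in all treated libraries than in all control libraries of the same cell line. It was 1126 and 1136 CPM in treated 253J, 4846 and 3778 CPM in J82, 2269 and 2502 CPM in RT112 and 1661 and 1500.1 CPM in TCCSUP, which were 3.74-fold, 1.51-fold, 1.33-fold and 8.99-fold lower than control by the group means. Sums of 2 against 2 libraries were not tested. The fibrillar genes took 40.9% of the treated sum in TCCSUP, against 82.5% in control, and the type IV genes 15.5% in RT112, against 42.6%. While the sum was lower, more collagen genes reached 1 CPM, with 20 to 23 members in a control library and 28 to 33 in a treated library. The same count was not made for all genes. Of all tested genes under 1 CPM in control, 29.1% in J82 to 49.4% in TCCSUP were higher with CM-1758 at an adjusted p under 0.05. In these bulk samples a lower level can mean fewer cells with a transcript or less transcript per cell, and the counts cannot tell these apart.

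**Figure D1:**
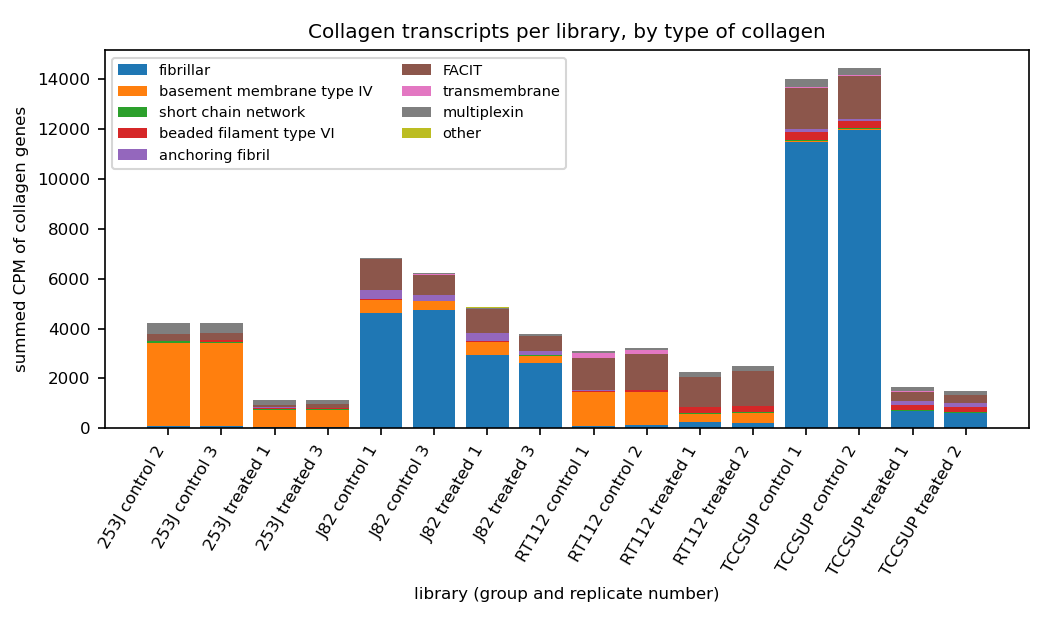
Summed CPM of the 44 collagen genes (y axis) in each of the 16 libraries (x axis, group and replicate number), with colours for the types of collagen. The control TCCSUP bars reach 13998.5 and 14428 CPM and are mostly fibrillar, and the treated TCCSUP bars reach 1661 and 1500.1 CPM.

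Counted gene by gene, more members rose than fell. In 253J 19 of 42 members were higher and 7 lower at an adjusted p under 0.05, against 28.8% and 22.4% of all tested genes. In J82 22 were higher and 5 lower (24% and 18.5% of all genes), in RT112 22 were higher and 6 lower (27.4% and 20.2%), and in TCCSUP 17 were higher and 13 lower (32% and 22.1%). The count of lower members in J82 was 3 without control replicate 1 and 2 without treated replicate 3. At the thresholds the study used, an adjusted p under 0.01 and a log2 fold change beyond 2, the higher members numbered 12, 13, 14 and 11 in 253J, J82, RT112 and TCCSUP (9.43%, 8.81%, 11.4% and 14.2% of all genes) and the lower members 2, 0, 2 and 7 (3.5%, 1.24%, 1.39% and 3.31%). Each count of 0 given for the collagen genes was also 0 at an unadjusted p under 0.05 and with DESeq2. The median log2 fold change of the members, with genes at the floor set to their bound, was 0.56 in TCCSUP, 1.24 in RT112, and 1.03 in both J82 and 253J, against 0.20, 0.12, 0.05 and 0.10 over all tested genes. With libraries scaled by their size alone, the median of all genes was higher by 0.31 in TCCSUP, 0.15 in both RT112 and J82, and 0.27 in 253J on the log2 scale, and no call of a named member changed direction.

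**Figure D2:**
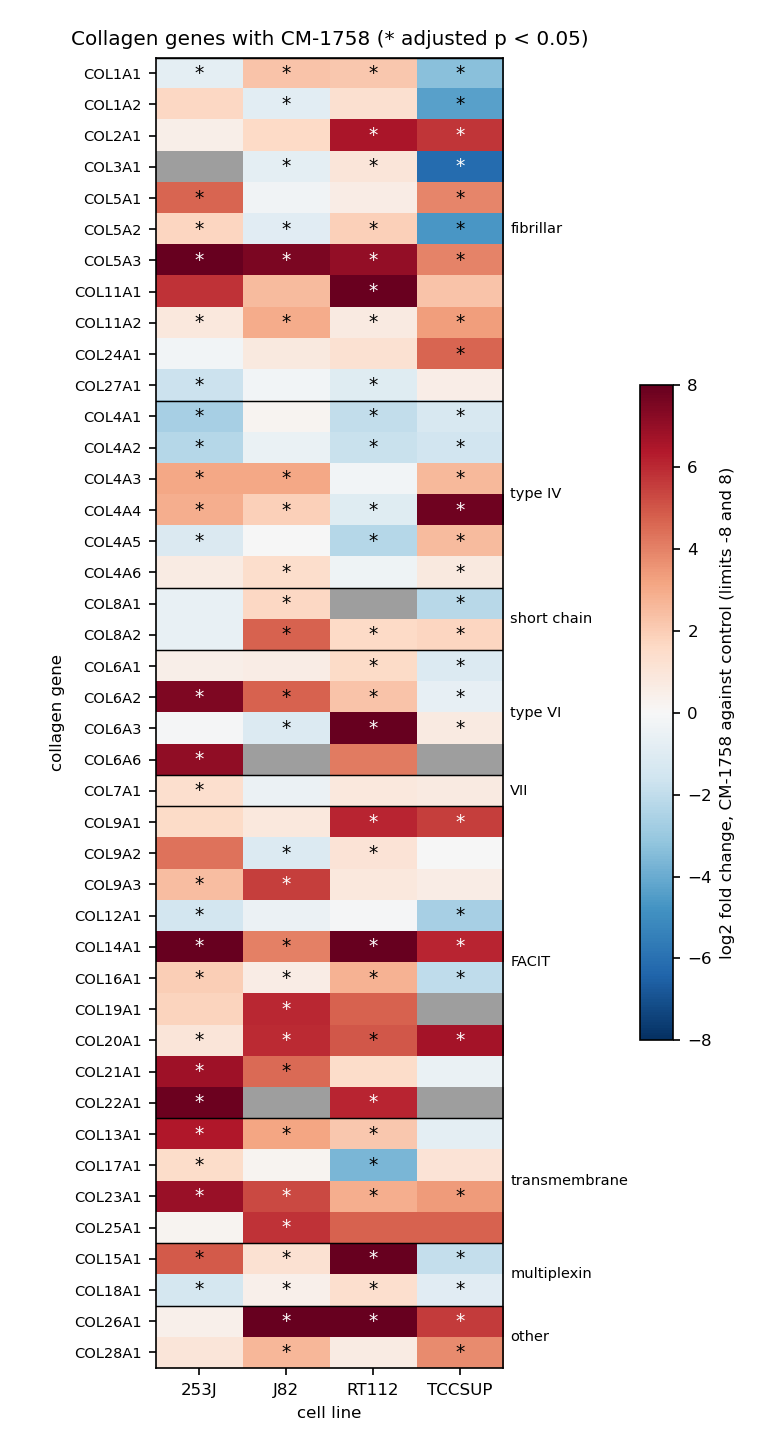
Log2 fold change of CM-1758 against control (colour, limited at -8 and 8) for the 42 tested collagen genes (y axis, by type) in the 4 cell lines (x axis), with a star where the adjusted p was under 0.05 and grey where both groups were at or under 3 counts per library. 14 genes hold stars of both colours, while COL5A3, COL11A2, COL14A1, COL20A1 and COL23A1 are red and starred in all 4 columns.

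The direction went with the level in control, among the members as among all tested genes, though less clearly in J82. Of the members with a control mean of at least 10 CPM, 7 of 9 were lower in 253J, 4 of 14 in J82, 6 of 12 in RT112 and 12 of 15 in TCCSUP, against 40.7%, 34.7%, 37.5% and 41.4% of all genes at that level. The share of the J82 members, 28.6%, was thus below that of all such genes. Of these abundant members 0 were higher in 253J, against 24% of such genes. J82 had 2 higher (17.3%), RT112 had 3 (17.6%) and TCCSUP had 1 (17.7%). Of the members with 1 to 10 CPM in control, 8 of 12 were higher in 253J, 6 of 7 in J82, 7 of 10 in RT112 and 3 of 8 in TCCSUP, against 33.1%, 30.7%, 30.8% and 34.2% of all genes at that level. Members at or near 0 in control passed the filter only through another group. Of the members under 1 CPM in control, 11 of 21, 14 of 21, 12 of 20 and 13 of 19 were higher, with none lower by the edgeR test in any cell line. Of all genes under that level 32.6%, 29.1%, 38.2% and 49.4% were higher and 1.53%, 1%, 1.27% and 1.12% lower. Sorting genes by the control values that also enter the fold change ties both quantities together, so the counts are a description.

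**Figure D3:**
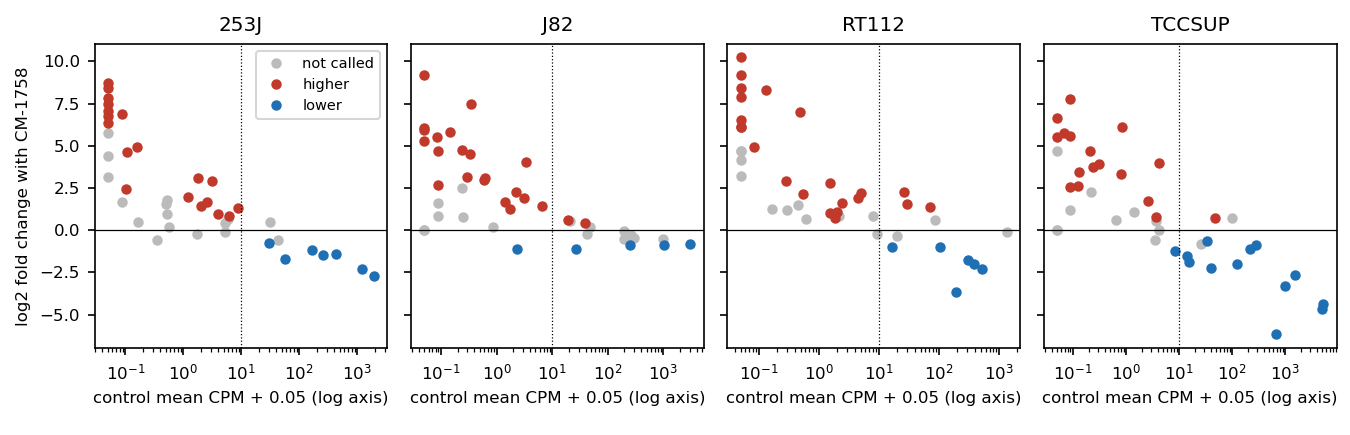
Log2 fold change with CM-1758 (y axis) against control mean CPM plus 0.05 (x axis, log scale) for the 42 tested collagen genes in each cell line, red for higher, blue for lower and grey for not called, with a dotted line at 10 CPM. The 7 blue points of 253J all lie to the right of the line, and the points at the far left, with 0 counts in control, have fitted values that depend on the prior count.

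The genes of fibril types I, III and V changed in different directions in different cell lines. COL1A2, the second chain of type I collagen, was the most abundant collagen of TCCSUP, with 5058 and 5349 CPM in control and 273 and 239.8 CPM with CM-1758. The pair of treated libraries was far below the pair of control libraries, a log2 fold change of -4.34 ± 0.25 (SE, adjusted p = 9.28e-09) or 20.3-fold lower. Its partner COL1A1, the main chain of type I collagen, had 896 and 1080.0 CPM in control TCCSUP and 100.3 and 97.9 CPM with CM-1758. It was 9.97-fold lower there (log2 fold change -3.32 ± 0.20, adjusted p = 1.54e-08), with no overlap. COL3A1, the only chain of type III collagen, went from 632 and 684 CPM to 10.1 and 8.34 CPM in TCCSUP. COL5A2, a type V chain that seeds type I fibrils, went from 4880.0 and 4848 CPM to 221 and 165 CPM. These were 71.2-fold and 25.2-fold lower, with adjusted p = 3.9e-10 and 1.15e-09. In the same cells the summed level of the 6 fibroblast markers was 1834 to 1967 CPM in control and 338 to 378 CPM with CM-1758, with DCN at 278 and 23.9 CPM and THY1 at 410.3 and 98.1 CPM by group means, and their part in the fall of the fibrillar genes was not tested.

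In J82, where COL3A1 led, the same genes moved less. COL3A1 had 2979 and 3178 CPM in control and 1767 and 1739 CPM with CM-1758, 1.76-fold lower (adjusted p = 0.00169). COL5A2 had 963 and 1109.9 CPM in control and 648 and 474 CPM with CM-1758, 1.85-fold lower (adjusted p = 0.000978). COL1A2 had 295 and 203 CPM in control and 164 and 109 CPM with CM-1758, a 1.82-fold decrease (adjusted p = 0.00549) that was not called without control replicate 1 or without treated replicate 3 (adjusted p = 0.06 and 0.0683). The groups of these genes did not overlap, and the COL3A1 call was lost with J82 fitted alone (adjusted p = 0.055). COL1A1 rose in J82, from 2.89 and 1.45 CPM to 11.3 and 9.58 CPM, 4.82-fold (log2 fold change 2.27 ± 0.23, adjusted p = 2.99e-06). The 2 chains of type I collagen were thus called in opposite directions in this cell line. The fibroblast marker sum in J82 was 158 to 191 CPM with CM-1758, against 102 to 109 CPM in control.

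In RT112 and 253J these genes were low. COL1A1 rose in RT112, from 4.45 and 5.49 CPM in control to 23.7 and 21.3 CPM with CM-1758, 4.53-fold (adjusted p = 1.43e-06). COL5A2 rose from 4.71 and 4.27 CPM to 16.9 and 17.1 CPM, 3.79-fold (adjusted p = 2.95e-06), and COL3A1 from 1.57 and 1.42 CPM to 2.62 and 3.36 CPM, 1.99-fold (adjusted p = 0.00357). In 253J COL5A2 rose from 2.50 and 2.49 CPM to 7.25 and 8.84 CPM, 3.23-fold (adjusted p = 1.31e-05). COL1A1 had 30.0 and 30.5 CPM in control 253J and 17.6 and 18.2 CPM with CM-1758, 1.69-fold lower (adjusted p = 0.00446), and the call was lost with scaling by library size alone (adjusted p = 0.0586). No group of these comparisons overlapped. The fibroblast marker sum in RT112 was 1330.4 to 1364 CPM in control and 818 to 890.5 CPM with CM-1758. Nearly all of it was LUM, with group means of 1347 and 846 CPM. PDGFRA, PDGFRB, DCN and THY1 were higher with CM-1758 by group means, at up to 4.58 CPM, and FAP was lower. In 253J the sum stayed at or under 2.43 CPM. COL1A2 stayed at or under 0.391 CPM in every library of 253J and RT112, with adjusted p = 0.247 and 0.168, and COL3A1 had 2 counts in 1 treated 253J library and 0 in the others. The effect on COL1A1, COL1A2, COL3A1 and COL5A2 differed between the 4 cell lines by the interaction test (adjusted p = 1.23e-08, 1.68e-06, 9.43e-09 and 3.17e-09).

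**Figure D4:**
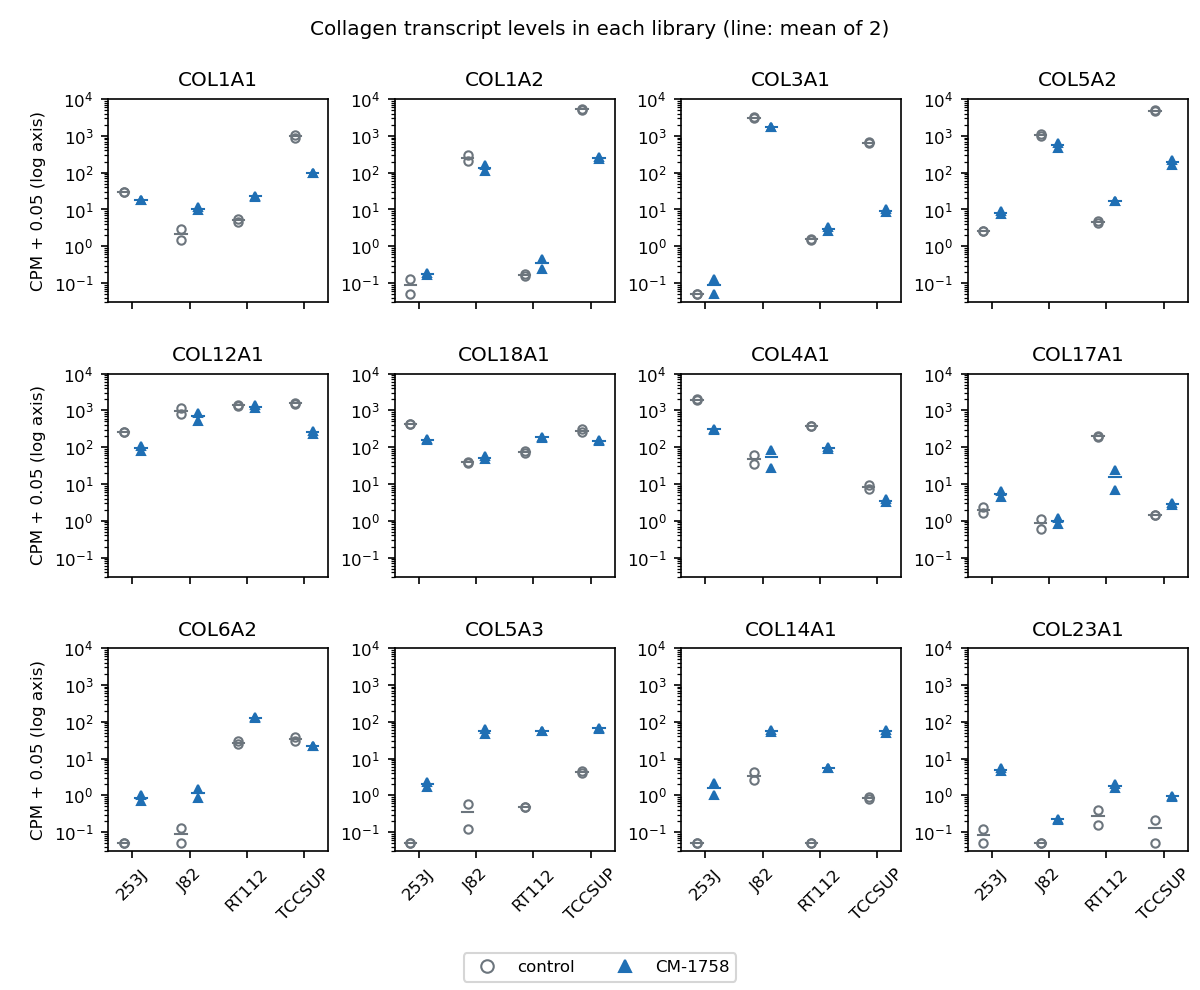
CPM plus 0.05 on a log axis (y) of 12 collagen genes in each library of the 4 cell lines (x), open circles for control and filled triangles for CM-1758, with a short line at the mean of 2. The triangles of COL1A2, COL3A1 and COL5A2 lie below the circles in TCCSUP and J82, those of COL5A3, COL14A1 and COL23A1 lie above the circles in all 4 cell lines, and COL3A1 overlaps near 0 in 253J.

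COL5A3, the least common chain of type V collagen, rose in all 4 cell lines. It had 0 counts in both control libraries of 253J and 1.66 and 2.26 CPM with CM-1758, at least 17.6-fold higher against a floor of 3 counts per library. In J82 it had 0.532 and 0.0727 CPM in control and 46.5 and 63.0 CPM with CM-1758, and in RT112 0.425 and 0.441 CPM and 56.9 and 57.4 CPM. In TCCSUP it had 4.47 and 3.91 CPM in control and 64.0 and 67.1 CPM with CM-1758. The treated level of 3 cell lines was thus between 46.5 and 67.1 CPM, and the groups did not overlap in any cell line. The increase was 15.6-fold in TCCSUP, 131-fold in RT112 and 181-fold in J82 (adjusted p = 6.09e-08, 6.85e-09 and 1.05e-08, and 4.37e-06 in 253J).

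COL11A2, a type XI chain better known from cartilage, also rose in all 4 cell lines. It went from 0.791 and 0.728 CPM to 8.05 and 7.36 CPM in TCCSUP (10.1-fold, adjusted p = 4.25e-07) and from 0.57 and 0.545 CPM to 3.29 and 5.42 CPM in J82 (7.77-fold, adjusted p = 3.26e-06). It went from 6.48 and 5.67 CPM to 10.9 and 11.3 CPM in 253J (1.83-fold, adjusted p = 0.00806), which was not called without control replicate 3 (adjusted p = 0.0662). In RT112 it had 1.67 and 1.97 CPM in control and 3.01 and 2.94 CPM with CM-1758 (adjusted p = 0.0421). The groups did not overlap, yet the RT112 call had the largest adjusted p of the 80 calls of named members and was lost without any 1 of the RT112 libraries (adjusted p = 0.207 and 0.081 without control replicates 1 and 2, and 0.124 and 0.108 without treated replicates 1 and 2) and without any 1 of the libraries of 253J or TCCSUP (adjusted p from 0.0517 to 0.0551). COL5A1, the main chain of type V collagen, rose in 253J, from 0 and 3 counts to 30 and 54 counts, and in TCCSUP, from 0.356 and 0.153 CPM to 3.48 and 4.29 CPM (15.1-fold, adjusted p = 1.66e-05). The ratio of its counts in 253J was 27.4 (95% counting interval 9.06 to 136, adjusted p = 0.000149). COL5A1 was higher in control J82 and RT112, with means of 261 and 87.8 CPM, and had adjusted p = 0.373 and 0.0822 there. COL27A1, a fibrillar chain of cartilage matrix, fell in 253J from 59.8 and 55.1 CPM to 19.0 and 16.4 CPM (3.25-fold, adjusted p = 3.33e-05). It fell in RT112 from 15.3 and 17.5 CPM to 6.50 and 9.99 CPM (1.99-fold, adjusted p = 0.0045), a call lost without treated replicate 1 (adjusted p = 0.0656).

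Of the 5 members higher in all 4 cell lines, COL5A3 and COL23A1 are the ones with a single start in the RefSeq promoter table, and their 250 bases before it are shown for that reason. COL11A2 has 4 entries there and is not shown. COL23A1 encodes a transmembrane collagen whose values are given with the other membrane collagens. Capitals mark the motif CCAAT, the motif GGGCGG or the motif TATAAA, each read on either strand. The COL5A3 stretch is chr19:10010505-10010754 and the COL23A1 stretch chr5:178590394-178590643 of GRCh38.p14, both on the minus strand and written in the direction of the gene.
COL5A3: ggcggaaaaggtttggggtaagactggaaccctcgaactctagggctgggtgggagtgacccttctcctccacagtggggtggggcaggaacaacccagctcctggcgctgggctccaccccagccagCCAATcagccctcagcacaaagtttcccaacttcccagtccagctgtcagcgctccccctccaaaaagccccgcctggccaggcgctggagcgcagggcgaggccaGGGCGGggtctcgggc
COL23A1: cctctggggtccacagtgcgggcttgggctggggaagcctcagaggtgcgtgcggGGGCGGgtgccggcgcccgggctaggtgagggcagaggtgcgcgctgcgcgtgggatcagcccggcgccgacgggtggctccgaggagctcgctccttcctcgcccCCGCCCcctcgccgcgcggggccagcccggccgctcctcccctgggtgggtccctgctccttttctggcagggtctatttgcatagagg
COL5A3 held 1 CCAAT and 1 GGGCGG, and COL23A1 held 2 GGGCGG. Of 35116 RefSeq promoters of this length, 32% held CCAAT, 42.6% GGGCGG and 10.7% TATAAA. The GC content was 66% and 74.4%, with 10 and 25 CpG, against medians of 58% and 11 over all promoters.

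The 6 type IV genes stand in the genome as 3 head-to-head pairs, each transcribed away from a shared stretch of 126, 418 or 379 bp between the RefSeq start sites of COL4A1 and COL4A2, COL4A4 and COL4A3, and COL4A6 and COL4A5. COL4A1 and COL4A2, which form the common network of all basement membranes, fell in 253J, RT112 and TCCSUP. In 253J COL4A1 went from 2022 and 1894 CPM in control to 313 and 297 CPM with CM-1758, and COL4A2 from 1159 and 1255 CPM to 265 and 235 CPM. These were 6.43-fold and 4.82-fold lower (log2 fold change -2.68 ± 0.37 and -2.27 ± 0.36, adjusted p = 2.59e-05 and 9.68e-05). In RT112 COL4A1 went from 380.1 and 384 CPM to 91.0 and 101 CPM and COL4A2 from 295 and 325 CPM to 88.8 and 93.5 CPM, 3.97-fold and 3.40-fold lower (adjusted p = 0.000417 and 0.000944). TCCSUP had little of either, with 9.58 and 7.20 CPM of COL4A1 in control against 3.74 and 3.27 CPM with CM-1758 and 15.6 and 12.7 CPM of COL4A2 against 4.42 and 5.47 CPM (adjusted p = 0.0201 and 0.00483). The groups did not overlap in these 3 cell lines, but the COL4A1 call in TCCSUP was lost without control replicate 1, treated replicate 1 or treated replicate 2 (adjusted p = 0.112, 0.0636 and 0.101) and with library size alone (adjusted p = 0.0796). In J82 the control libraries had 62.7 and 34.3 CPM of COL4A1 and the treated libraries 83.2 and 27.7 CPM, so the groups overlapped, and COL4A2 overlapped too, with 259 and 130.4 CPM and 201 and 73.6 CPM (adjusted p = 0.723 and 0.27).

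The stretch between the start sites of COL4A1 and COL4A2 is printed because both genes read outward from it and were called lower together in 3 cell lines. It is chr13:110307158-110307283 of GRCh38.p14, written on the plus strand, in the direction of COL4A2.
COL4A1-COL4A2 spacer: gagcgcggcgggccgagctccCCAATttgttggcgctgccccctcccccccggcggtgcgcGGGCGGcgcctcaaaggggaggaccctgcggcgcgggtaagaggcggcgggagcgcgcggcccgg
It held 1 CCAAT and 1 GGGCGG, in capitals, and no TATAAA on either strand. Of the promoter stretches of 126 bases in the RefSeq table, 21.1% held CCAAT, 34.6% GGGCGG and 5.87% TATAAA. The spacer had a GC content of 80.2% and 20 CpG, against medians of 60.3% and 6.

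COL4A3 and COL4A4, chains of the specialised network known from the kidney glomerulus, rose where they were low. In 253J COL4A4 went from 2.57 and 3.72 CPM to 19.5 and 27.2 CPM and COL4A3 from 1.41 and 2.07 CPM to 12.6 and 16.8 CPM. The increases were 7.45-fold and 8.46-fold (adjusted p = 2.39e-06 and 1.45e-05), with no overlap. In J82 COL4A4 went from 4.22 and 2.00 CPM to 14.1 and 8.94 CPM and COL4A3 from 0.646 and 0.473 CPM to 4.26 and 5.32 CPM, 3.72-fold and 8.52-fold (adjusted p = 0.000205 and 7.59e-05). In TCCSUP COL4A4 had 0 and 2 counts in control and 250 counts in each treated library, a ratio of 246 with a 95% counting interval of 67.9 to 2041 (adjusted p = 1.6e-07). COL4A3 reached only 0.337 and 0.669 CPM there, from 0 and 0.153 CPM (adjusted p = 0.013, and 0.103 without control replicate 1 and 0.108 without treated replicate 2). RT112 had by far the most COL4A4 in control, 112 and 99.5 CPM, and there it fell to 50.0 and 57.7 CPM (1.96-fold, adjusted p = 0.00744), a call lost without control replicate 1 or treated replicate 1 (adjusted p = 0.0513 and 0.0609). COL4A3 had 8.79 and 9.56 CPM in control RT112 and 5.63 and 10.3 CPM with CM-1758, which overlapped.

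COL4A5 and COL4A6, chains encoded on the X chromosome, shared a call only in TCCSUP, where COL4A5 was near 0. COL4A5 fell in RT112, from 538 and 504 CPM to 86.8 and 124 CPM, 4.95-fold (log2 fold change -2.31 ± 0.20, adjusted p = 5.42e-07). It fell in 253J, from 149 and 179 CPM to 63.1 and 80.9 CPM, 2.28-fold (adjusted p = 0.00013), while in J82 the groups overlapped, with 193 and 205 CPM and 207 and 176 CPM. COL4A6 had 20.6 and 19.9 CPM in control RT112 against 11.3 and 20.4 CPM with CM-1758, which overlapped, and 5.50 and 6.24 CPM against 9.31 and 9.28 CPM in 253J, which did not (adjusted p = 0.28 and 0.0538). It rose in J82, from 5.93 and 7.13 CPM to 16.3 and 18.5 CPM, 2.66-fold (adjusted p = 0.000638). In TCCSUP COL4A5 went from 0 and 2 counts to 8 and 5 counts, a ratio of 6.41 with a 95% counting interval of 1.45 to 58.5 (adjusted p = 0.0275), and the call was lost without control replicate 1 or treated replicate 1 (adjusted p = 0.168 and 0.133). COL4A6 went from 4.67 and 2.68 CPM to 6.03 and 6.57 CPM in TCCSUP (adjusted p = 0.0313), and this call was lost without control replicate 2, treated replicate 1 or treated replicate 2 (adjusted p = 0.295, 0.0711 and 0.117).

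**Figure D5:**
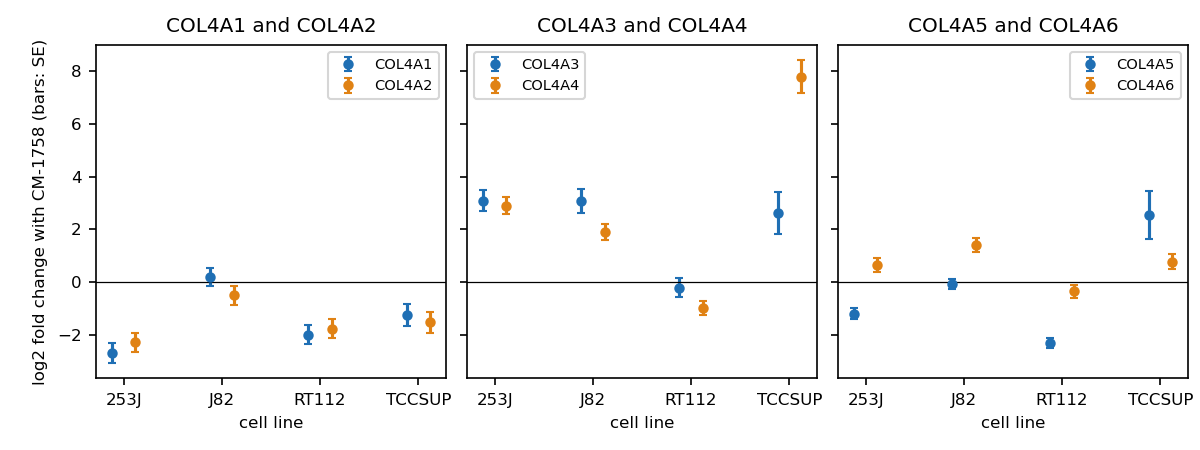
Log2 fold change with CM-1758 (y axis, bars are the SE) in each cell line (x axis) for the 3 pairs of type IV collagen genes that share a start region. COL4A1 and COL4A2 lie below 0 together in 253J, RT112 and TCCSUP and on either side of 0 in J82, where neither was called, while COL4A5 lies below COL4A6 in 253J, J82 and RT112, most in RT112, with -2.31 for COL4A5.

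The type VI chains, which assemble as a trimer of A1, A2 and A3, were raised together in RT112. There COL6A1 went from 27.0 and 32.1 CPM to 87.3 and 84.9 CPM, COL6A2 from 24.2 and 29.4 CPM to 128 and 131 CPM and COL6A3 from 0 and 5 counts to 603 and 834 counts. The groups did not overlap, and the log2 fold changes were 1.54 ± 0.29, 2.27 ± 0.21 and 8.30 ± 0.44 (adjusted p = 0.000549, 1.39e-06 and 6.82e-09). TCCSUP had the highest control mean of all 3 chains, though for COL6A2 it did not differ from control RT112 by the edgeR test (adjusted p = 0.189). In TCCSUP the A1 chain fell from 248 and 192 CPM to 109 and 93.5 CPM (2.18-fold, adjusted p = 0.00403). COL6A2 went from 38.0 and 29.6 CPM to 21.9 and 21.7 CPM (adjusted p = 0.0179), and COL6A3 rose from 52.8 and 41.2 CPM to 64.8 and 91.9 CPM (1.67-fold, adjusted p = 0.0144). Both of the last calls were weak: that of COL6A2 was lost without control replicate 1, treated replicate 1 or treated replicate 2 (adjusted p = 0.169, 0.0731 and 0.0818) and with library size alone (adjusted p = 0.211), and that of COL6A3 without control replicate 2 or treated replicate 2 (adjusted p = 0.141 and 0.199). In 253J and J82, COL6A2 was almost silent in control, with 0 counts in 253J and 2 and 0 counts in J82, and rose to 0.673 and 0.945 CPM and 1.43 and 0.779 CPM. That was at least 7.24-fold higher in 253J, and in J82 a ratio of counts of 29.5 with a 95% counting interval of 7.84 to 249 (adjusted p = 4.78e-05 and 6.46e-05). COL6A3 had 2.17 and 2.47 CPM in control J82 and 1.07 and 1.08 CPM with CM-1758 (adjusted p = 0.0173), a decrease not called without control replicate 3, treated replicate 1 or treated replicate 3 (adjusted p = 0.0806, 0.088 and 0.0729) or with J82 fitted alone (adjusted p = 0.0613). COL6A1 had adjusted p = 0.173 in 253J and 0.132 in J82, where the groups overlapped.

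COL8A1, a network collagen of vessel walls and other basement membranes, fell in TCCSUP from 36.5 and 44.7 CPM to 7.49 and 9.80 CPM (4.70-fold, adjusted p = 0.000153). In J82 it rose from 2.24 and 0.473 CPM to 5.33 and 3.18 CPM (3.15-fold, adjusted p = 0.00833), which was not called without control replicate 3 or treated replicate 1 (adjusted p = 0.0535 and 0.0588) or with J82 fitted alone (adjusted p = 0.066). In 253J the control mean was 43.4 CPM and the treated mean 28.9 CPM (adjusted p = 0.169). COL7A1, the anchoring fibril collagen that holds epithelium to the stroma, rose in 253J from 8.69 and 8.50 CPM to 20.0 and 23.0 CPM (2.50-fold, adjusted p = 0.00438). It was most abundant in control J82, with 381 and 214 CPM, and had 302 and 133 CPM in the treated J82 libraries, which overlapped. In RT112 and TCCSUP both treated libraries were above both control libraries, with adjusted p = 0.0506 and 0.0589.

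Among the FACIT collagens, COL12A1 and COL14A1 are close relatives that sit on the surface of type I fibrils. COL12A1 was abundant everywhere in control and fell in TCCSUP, from 1516 and 1612 CPM to 275 and 229 CPM, 6.20-fold (log2 fold change -2.63 ± 0.25, adjusted p = 7.23e-07). It fell in 253J, from 256 and 266 CPM to 77.4 and 109 CPM, 2.81-fold (adjusted p = 1e-04). In RT112 it had 1291 and 1424 CPM in control and 1179 and 1356 CPM with CM-1758, and in J82 1157 and 788 CPM and 857 and 524 CPM. These groups overlapped in both cell lines (adjusted p = 0.775 and 0.103).

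COL14A1 rose in all 4 cell lines. It had 0 counts in the control libraries of 253J and RT112, where the treated libraries had 0.951 and 2.13 CPM and 5.60 and 5.53 CPM, at least 13.8-fold and 55.7-fold higher. In J82 it went from 4.14 and 2.62 CPM to 52.5 and 58.9 CPM and in TCCSUP from 0.752 and 0.842 CPM to 60.7 and 49.1 CPM, 16.5-fold and 68.4-fold. No groups overlapped (adjusted p = 2.73e-08, 4.3e-07, 3.25e-07 and 1.47e-05 in TCCSUP, RT112, J82 and 253J). In TCCSUP COL14A1 had thus risen to 60.7 and 49.1 CPM in libraries where COL12A1 had fallen to 275 and 229 CPM.

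COL16A1, another FACIT collagen, rose in 3 cell lines and fell in the one that had most of it. In TCCSUP it went from 134 and 114 CPM to 30.8 and 30.7 CPM (4.03-fold lower, adjusted p = 8.84e-07). In RT112 it went from 1.41 and 1.59 CPM to 8.22 and 12.5 CPM and in 253J from 1.23 and 1.11 CPM to 5.62 and 3.64 CPM, 6.92-fold and 3.92-fold higher (adjusted p = 4.54e-07 and 1.82e-05). The change in J82 was small, from 19.1 and 19.6 CPM to 28.3 and 29.8 CPM (adjusted p = 0.0229), and was lost without control replicate 1, control replicate 3 or treated replicate 3 (adjusted p = 0.0758, 0.0619 and 0.0905). COL9A2, a type IX chain of cartilage, had 33.3 and 20.5 CPM in control J82 and 14.7 and 10.2 CPM with CM-1758, and 2.39 and 1.52 CPM in control RT112 and 4.66 and 3.74 CPM with CM-1758. The groups did not overlap (adjusted p = 0.0213 and 0.0359), but the J82 call was lost without control replicate 1 or treated replicate 3 (adjusted p = 0.187 and 0.147) and with library size alone (adjusted p = 0.0508), and the RT112 call without control replicate 2, treated replicate 1 or treated replicate 2 (adjusted p = 0.215, 0.154 and 0.0569).

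COL17A1, the transmembrane collagen of hemidesmosomes, was far higher in control RT112 than in the other 3 control groups (adjusted p = 1.59e-08 against 253J, the next). RT112 had 207 and 184 CPM in control and 7.0 and 24.3 CPM with CM-1758. It fell 12.5-fold (log2 fold change -3.64 ± 0.40, adjusted p = 4.7e-06), and the treated libraries, though both far below control, differed from each other. In RT112 the summed level of 8 urothelial markers was 1718 to 1957 CPM in control and 682 to 735 CPM with CM-1758. Most of the control sum was UPK1B, with group means of 1408 CPM in control and 352 CPM with CM-1758. UPK1A fell too, with 5.04 and 0.251 CPM, as did FOXA1, with 44.6 and 22.0 CPM, and UPK2, with 4.30 and 2.43 CPM. PPARG and TP63 moved less, with PPARG at 204 and 177 CPM and TP63 at 135 and 109 CPM. GATA3 was higher, at 37.5 and 46.3 CPM, and UPK3A was at 0 in both groups. The part of these markers in the fall of COL17A1 was not tested. In 253J COL17A1 went from 2.39 and 1.53 CPM to 6.34 and 4.49 CPM (2.74-fold higher, adjusted p = 0.0172), a call lost without control replicate 3 or treated replicate 1 (adjusted p = 0.126 and 0.107). J82 and TCCSUP had control means of 0.824 and 1.36 CPM, with adjusted p = 0.877 and 0.102. The 250 bases before its start, chr10:104085881-104086130 of GRCh38.p14 on the minus strand, are printed in the direction of the gene because COL17A1 was called in opposite directions and its promoter differs in composition from the COL5A3 and COL23A1 stretches given above.
COL17A1: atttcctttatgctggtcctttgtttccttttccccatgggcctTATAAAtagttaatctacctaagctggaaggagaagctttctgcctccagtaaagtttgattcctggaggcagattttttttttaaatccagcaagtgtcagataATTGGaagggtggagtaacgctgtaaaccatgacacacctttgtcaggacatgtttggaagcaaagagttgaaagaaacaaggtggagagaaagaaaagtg
The capitals mark 1 TATAAA and 1 CCAAT, the latter on the other strand, and there was no GGGCGG. Its GC content was 40.4% with 1 CpG, and 14.7% of all promoters held that few.

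The other transmembrane collagens were called higher in some or all cell lines and, with no replicate block, lower in none. COL25A1, the precursor of an amyloid plaque component, was called in J82 alone, with control and treated means of 0.095 and 5.47 CPM (adjusted p = 0.000159). COL13A1, found at cell adhesion sites, rose in J82, from 0.152 and 0.327 CPM to 2.22 and 2.23 CPM, and in RT112, from 0.229 and 0.779 CPM to 2.15 and 2.40 CPM, 9.08-fold and 4.51-fold (adjusted p = 0.000418 and 0.00237). In 253J it went from 0 counts to 3 and 18 counts, at least 3.25-fold higher by the group means (adjusted p = 0.00348, and 0.0621 without treated replicate 3). TCCSUP had the most in control, 25.4 and 25.7 CPM, against 14.3 and 15.1 CPM with CM-1758 (adjusted p = 0.0799). With the replicate number as a block, COL13A1 was called lower there (adjusted p = 0.0299). COL23A1 was named after its values were seen, as 1 of the 5 members higher in all 4 cell lines. It had 2 and 0 counts in control 253J and 5.31 and 4.62 CPM with CM-1758, a ratio of counts of 133 with a 95% counting interval of 36.4 to 1101. In RT112 it went from 0.36 and 0.102 CPM to 2.03 and 1.49 CPM, 7.46-fold, and in TCCSUP from 0.158 and 0 CPM to 0.936 and 0.826 CPM, 10.7-fold. In J82 it had 0 counts in control and 5 counts in each treated library, at least 1.56-fold higher. Adjusted p was 1.03e-05, 0.0285, 0.00219 and 0.00328 in 253J, J82, RT112 and TCCSUP, and no groups overlapped.

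The multiplexins COL18A1 and COL15A1, with many short interrupted helices, are basement membrane collagens whose C-terminal fragments are known as endostatin and restin. COL18A1 fell in 253J, from 439 and 423 CPM to 168 and 154 CPM, 2.68-fold (log2 fold change -1.42 ± 0.14, adjusted p = 1.41e-06), and in TCCSUP, from 309 and 255 CPM to 158 and 145 CPM, 1.86-fold (adjusted p = 0.000103). It rose in RT112, from 67.5 and 77.0 CPM to 195 and 178 CPM, 2.58-fold (adjusted p = 3.35e-06). In J82 it went from 39.9 and 38.2 CPM to 57.4 and 47.3 CPM (adjusted p = 0.0283), a call lost without control replicate 1, control replicate 3 or treated replicate 1 (adjusted p = 0.0592, 0.106 and 0.11) and with J82 fitted alone (adjusted p = 0.115). The treated level of COL18A1 was thus 145 to 195 CPM in 253J, RT112 and TCCSUP, a narrower range than the 67.5 to 439 CPM of their control libraries. J82 lay below both ranges, with 57.4 and 47.3 CPM in the treated libraries. COL15A1 rose from 6 and 0 counts to 96 and 93 counts in 253J (29.9-fold, adjusted p = 6.57e-06) and from 0 counts to 1.41 and 1.75 CPM in RT112, at least 15.8-fold higher (adjusted p = 1.58e-05). It fell in TCCSUP, from 13.1 and 18.2 CPM to 3.71 and 4.76 CPM, 3.69-fold (adjusted p = 0.000594). In J82 it went from 1.71 and 1.75 CPM to 3.83 and 4.33 CPM (adjusted p = 0.0178), which was lost without control replicate 1, control replicate 3 or treated replicate 3 (adjusted p = 0.0588, 0.0576 and 0.0722).

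The remaining 15 tested members stayed under 10 CPM in every group, with group means of at most 8.38 CPM. Of these, 8 were higher in TCCSUP, 8 in RT112, 9 in J82 and 6 in 253J, and 0 were lower in any cell line by edgeR. Of all tested genes 32%, 27.4%, 24% and 28.8% were higher and 22.1%, 20.2%, 18.5% and 22.4% lower. Of the tested genes under 1 CPM in control, 49.4%, 38.2%, 29.1% and 32.6% were higher and 1.12%, 1.27%, 1% and 1.53% lower. Most of these 15 members were under 1 CPM in control, so 0 lower is close to the share at that level. Members this low passed the filter mainly through a group in which they were high, so their counts are a description only. COL20A1, a FACIT collagen and the fifth member higher in all 4 cell lines, rose from 4.27 and 3.68 CPM to 7.41 and 8.20 CPM in 253J and from 0 and 2 counts to 31 and 29 counts in RT112. In J82 and TCCSUP it had 0 counts in control and 5 and 11 counts and 12 and 12 counts with CM-1758, at least 2.47-fold and 3.94-fold higher, so the absolute level remained near the floor. Adjusted p was 0.0362, 0.00244, 7.29e-05 and 0.000465 in 253J, J82, RT112 and TCCSUP. The 253J call was weak and was lost in a fit that blocked on replicates.

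Between the cell lines, the effect of CM-1758 differed for 35 of the 42 members by the interaction F test of edgeR, against 51.9% of all tested genes. Of the 42 members, 14 were higher in at least 1 cell line and lower in another, against 12.9% of all genes, 5 were higher in all 4 (6.69%) and 0 lower in all 4 (6.01%). The 14 were COL1A1, COL3A1, COL5A2, COL4A4, COL4A5, COL8A1, COL6A1, COL6A2, COL6A3, COL9A2, COL16A1, COL17A1, COL15A1 and COL18A1. For COL4A4, COL4A5, COL6A2, COL6A3, COL8A1, COL9A2 and COL17A1, a call in 1 direction was lost when a single library was left out. The share of all genes was not recounted in that way. COL11A2 was among the 5 only with its weak call in RT112. COL20A1 was among them only with its call in 253J, which a fit that blocked on replicates did not keep. Every tested member was called in at least 1 cell line in the main fit, while 16.7% of all tested genes were called in none. COL6A6 and COL22A1 were low elsewhere and passed the filter mainly through treated 253J, where both were called. Such calls are partly built in, so this contrast is a description only. COL6A6 had no other call, and a fit that blocked on replicates did not keep it. The 4 contrasts are of different cell lines and share no control library.

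The proteins that make collagen were read from lists of genes with known roles, drawn up with earlier results of these data known. Of 18 genes that fold and modify collagen chains in the endoplasmic reticulum, 17 were lower in 253J and 15 in TCCSUP with 0 higher in either by edgeR, against 22.4% and 22.1% lower of all tested genes and 40.7% and 41.4% of those with at least 10 CPM in control. For this list 6 were higher and 6 lower in J82 and 5 higher and 7 lower in RT112. The median log2 fold change of this list was -1.50 in TCCSUP, -0.21 in RT112, 0.11 in J82 and -1.59 in 253J. SERPINH1, which encodes the collagen chaperone HSP47, fell in all 4 cell lines, by 3.59 to 4.50 on the log2 scale, from a control mean of 424 CPM to 35.2 CPM in 253J, 488 to 36.2 CPM in J82, 140.0 to 10.8 CPM in RT112 and 998 to 44.0 CPM in TCCSUP. Also lower in all 4 were PLOD3 and COLGALT1, which hydroxylate and glycosylate lysines, and CRTAP and PPIB, of the complex that hydroxylates prolines at the 3 position. Of 13 genes that process and crosslink collagen, 7 were lower in 253J with 0 higher, 3 were higher and 3 lower in J82, 6 higher and 2 lower in RT112 and 4 higher and 5 lower in TCCSUP. Of all tested genes 28.8%, 24%, 27.4% and 32% were higher and 22.4%, 18.5%, 20.2% and 22.1% lower in 253J, J82, RT112 and TCCSUP. BMP1, the protease that removes the C-terminal propeptide of fibrillar procollagens, was lower in all 4 (log2 fold change -2.62 in TCCSUP, adjusted p = 4.05e-09, to -1.08 in RT112, adjusted p = 1.43e-05). Of 7 collagen receptors, 2 were higher and 2 lower in 253J, 2 and 1 in J82, 3 and 0 in RT112 and 1 and 4 in TCCSUP, to be read against the same shares of all tested genes. The 0 counts of these lists were also 0 at an unadjusted p under 0.05 and with DESeq2, except for the receptors of RT112, where 2 were lower at an unadjusted p and 1 with DESeq2. SERPINH1 and BMP1 were thus lower in RT112 and J82 too, where COL1A1 rose.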

How the data were processed

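Stranded total RNA libraries, depleted of ribosomal RNA, were sequenced on a NovaSeq instrument by a service provider. The authors deposited raw counts, the whole number of reads per gene symbol, not normalized. The submitters' processing notes name HISAT2, StringTie and GRCh37. The role of each tool, the annotation and the strand setting of the counting are not given in the sources used here. The rows of antisense RNAs of collagen genes reached at most 2.05 CPM. All 16 columns were matched to samples by their labels.

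The filterByExpr function removed low genes, scaling was by TMM, and edgeR 4.0.16 (R 4.3.3) tested the genes of all 8 groups together by quasi-likelihood, with 1 contrast per cell line, 8 residual degrees of freedom and Benjamini-Hochberg adjustment over all 21297 genes tested. The limit was an adjusted p of 0.05. The SE of a log2 fold change is its size over the root of the F statistic. The fit was tested on simulated data. Floors are 3 counts per library, and ratios from 1 to 3 control counts have exact 95% Clopper-Pearson intervals, both for counting error only. With 2 libraries a group, the spread is pooled over groups. Levels per kb use union exon lengths of GENCODE.

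Genes named with values had a mean of at least 10 CPM in a group and a call with a log2 fold change beyond 1, plus both genes of the pairs described together and the genes of the biosynthesis lists called one way in all 4 cell lines. COL20A1, COL23A1 and COL25A1 were named after their values were seen. The naming rule for the members and the lists were chosen with earlier results of these data known. Of the 44 symbols, all are current in RefSeq and 32 have a promoter entry (GRCh38.p14). Alternatives were RLE scaling, library size alone, small noncoding RNA genes left out, DESeq2 1.42.0, each cell line alone, 2 other filters, other limits, a replicate block and leaving out each library.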

Additional observations from a re-analysis of the deposited data

Results flagged for a closer look

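The effect of CM-1758 on each of the 27 named collagen genes differed between the 4 cell lines by the interaction F test of edgeR (adjusted p given in brackets, Benjamini-Hochberg over all tested genes). These genes were named by a rule that uses their level and size of change in the same data, which favours a difference between cell lines. Their count therefore cannot be weighed against the 51.9% of all tested genes that also differed. Without that rule, 35 of the 42 tested members differed. The named fibrillar genes were COL1A1 (1.23e-08), COL1A2 (1.68e-06), COL3A1 (9.43e-09), COL5A1 (5.48e-05), COL5A2 (3.17e-09), COL5A3 (5.85e-05), COL11A2 (6.57e-05) and COL27A1 (7e-04). The type IV genes were COL4A1 (0.00153), COL4A2 (0.0393), COL4A3 (0.000371), COL4A4 (7.6e-07), COL4A5 (3.09e-05) and COL4A6 (0.0072). The network, filament and anchoring genes were COL8A1 (0.000531), COL6A1 (0.000596), COL6A2 (2.8e-06), COL6A3 (6.2e-08) and COL7A1 (0.0217). The FACIT genes were COL9A2 (0.0106), COL12A1 (7.98e-05), COL14A1 (0.00128) and COL16A1 (9.96e-08), and the membrane and multiplexin genes COL13A1 (0.000338), COL17A1 (2.18e-05), COL15A1 (3.36e-06) and COL18A1 (2.54e-07). COL5A3, COL11A2 and COL14A1 differed in size only, being called higher in all 4 cell lines, whereas 14 of the named genes were called in opposite directions. The drug dose and, for TCCSUP, the medium differed between the cell lines too, and their part cannot be told apart from that of the cell line.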

How the results depend on the processing

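No call of a named gene was reversed under any alternative, and of 1917 gene results 1849 kept their side of the threshold. RLE scaling, DESeq2, at least 10 counts in each library and the small noncoding RNA genes left out lost none of the 80 calls. Library size alone lost 4, each cell line alone 5 of 77, and no filter 1. The count of lower members in J82, 5, became 3 with J82 alone, 3 at an adjusted p under 0.01 and 2 with a log2 fold change beyond 1, and the 2 lower members of 253J at the limits of the study became 1 with library size alone. Leaving out 1 library gave 15 to 21 higher and 7 to 8 lower members in 253J, 15 to 23 and 2 to 7 in J82, 18 to 25 and 4 to 7 in RT112, and 13 to 18 and 11 to 14 in TCCSUP. A lone library of a group was then assumed to vary like the others. The labels do not say that a replicate number marks a shared culture, so it was not taken as a pairing. Deviations of same-numbered libraries from their group means correlated at 0.0173 in TCCSUP, 0.0427 in RT112 and 0.218 in J82 over all genes, and at 0.206, 0.0853 and 0.111 over the collagen genes. The 253J groups share 1 number. With the replicate number as a block, 8 members were lower in J82, the added ones being COL4A2, COL7A1 and COL12A1 (adjusted p = 0.00818, 0.00449 and 0.00561), whose treated library was below the control library of the same number although the groups overlapped. COL7A1 was then also higher in RT112 and TCCSUP (adjusted p = 0.000545 and 0.000402). The block also added COL6A1 as higher in J82 and COL5A1 in RT112 (adjusted p = 0.00379 and 0.0204). In TCCSUP it added COL27A1 as higher and COL13A1 as lower (adjusted p = 0.0445 and 0.0299). The block lost the calls of COL17A1 in 253J, COL11A2 in RT112 and COL4A5 in TCCSUP, and that of COL20A1 in 253J (adjusted p = 0.149). It also lost COL6A6 in 253J, COL28A1 in J82 and COL9A1 in TCCSUP (adjusted p = 0.0811, 0.0588 and 0.0841). Every other count stayed within 1.5 times. Depth limits members at a few counts, whose fitted fold changes depend on the prior count. The cause of these shifts was not tested.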
